A study of Rattus norvegicus with 8 samples.

Results

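The miR-181 family was described in rat cardiomyocytes of 2 postnatal ages. Its members were the 4 array entries rno-miR-181a, rno-miR-181b, rno-miR-181c and rno-miR-181d, taken by name from the miRNA spots and read with all of their probes, 8 of the 1644 probes and 4 of the 677 miRNAs on the array. Total RNA of cardiomyocytes was hybridised to 8 one-colour Agilent rat miRNA arrays, 4 for postnatal day 0 (P0) and 4 for postnatal day 10 (P10), from rats of either sex with no other treatment named in the labels. The labels state that P10 cardiomyocytes proliferate less than those of P0, and that the younger rats were of P0, whereas the series title gives 1 day of age. Nothing says that replicates were separate animals or cultures, so the spread behind each p-value is that of these arrays and may be technical.

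MicroRNAs pair with messenger RNAs through their seed, the bases near the 5′ end, and lower the output of those messengers. Members of a family share the seed and so much of their target set, and differ in the 3′ bases and in the genes that encode them. In rat cardiac myocytes miR-181c is known to enter mitochondria and to repress the mitochondrially encoded cytochrome oxidase subunit Cox1. miR-181a is known from developing lymphocytes, and miR-181b from vascular endothelium.

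The mature sequences are shown because the members differ in so few bases that the probes have to read them at the 3′ end. Each is given from RefSeq (GRCr8) with the seed, bases 2 to 8, in capitals.
miR-181a: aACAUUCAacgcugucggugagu
miR-181b: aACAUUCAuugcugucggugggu
miR-181c: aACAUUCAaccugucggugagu
miR-181d: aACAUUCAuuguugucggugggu
All 4 carried the seed ACAUUCA, and of the 693 mature rat miRNAs in the RefSeq table these 4 were the ones with it. Counted from 1 at the 5′ end, miR-181b differed from miR-181a by A9U, C10U and A21G, and miR-181d from miR-181b by C12U alone. miR-181c had 22 bases against the 23 of the others and was miR-181a with 1 base lost. By sequence the members thus formed the pairs a with c and b with d, while by position they form the pairs a with b and c with d.

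In GRCr8 the hairpin genes Mir181c (chr19:40888291-40888396) and Mir181d (chr19:40888474-40888556) lie 77 bases apart, outside any annotated gene, with Nanos3 as the next gene on the right, 975 bp beyond Mir181d. miR-181a and miR-181b are each encoded by a pair of loci. Mir181a-1 (chr13:52037067-52037166) and Mir181b1 (chr13:52037228-52037337) lie within the span of the long non-coding gene LOC108352541, with Ptprc, the gene of the leukocyte phosphatase CD45, on the right. Mir181a2 (chr3:43025563-43025679) and Mir181b2 (chr3:43026666-43026753) lie within the span of the nuclear receptor gene Nr6a1. The gene table carries no strand, so a span is not a statement about transcription. The mature miR-181a sequence is the same at both loci, so the array cannot tell them apart. For miR-181b RefSeq gave the mature sequence at the chromosome 13 locus alone, so the copies were not compared, and its signal is not assigned to one locus. The deposited table places the probes on rn4 at chr3:18650950-18650964 for miR-181a, chr3:18652030-18652043 for miR-181b, chr19:25667410-25667428 for miR-181c and chr19:25667583-25667599 for miR-181d, all on the minus strand.

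Each member had a pair of probes of unlike length, with 10 spots each per array. The brighter probe, which stands for the member below, is printed 5′ to 3′, and capitals mark the bases beyond the longest run that it shares with the complement of its closest relative.
miR-181a probe: actcaccgacagCGT
miR-181b probe: acccaccgacaGCA
miR-181c probe: actcaccgacagGTTGAAT
miR-181d probe: acccaccgacaACAATG
The miR-181a and miR-181c probes shared a run of 12 bases, and the miR-181b and miR-181d probes a run of 11. Since mature miR-181a and miR-181c differ by 1 base, as do miR-181b and miR-181d, the bases beyond these runs overstate how far the probes of each pair differ. How far a probe also binds its relative was not tested. Of 640 member spots 20 carried an outlier mark and were left out, and 0 miRNA spots were saturated. Across the 52 member probe values detected, the coefficient of variation between spots of one array had a median of 5.59% (range 1.59% to 21.1%).

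Some arrays stood apart. P0 replicate 1 was dim: the 75th percentile signal to which it was scaled was 116 intensity units, against 580 to 1326 on the other arrays, and after scaling it detected nothing under log2 -2.84, while the others reached down to between -6.61 and -5.48. P10 replicates 1 and 2 had nearly the same profile (r = 0.998 over 158 miRNAs), as had replicates 3 and 4 (r = 0.997), with r between 0.890 and 0.898 across these pairs. All arrays came from 1 slide with P0 on its first row and P10 on the next, so age and slide row cannot be told apart. Levels below are log2 of the scaled signal, with a floor at -5.89, and they are not comparable between members, since each has its own probe.

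Cardiomyocyte miRNAs were present at both ages. Higher and lower mean an adjusted p under 0.05 by limma, beside 4.43% higher and 4.43% lower among all tested miRNAs. Of the 5 markers miR-1, miR-133a, miR-133b, miR-208 and miR-499, all were tested, 3 were detected on all 8 arrays and 1, miR-208, was higher at P10. At P0, miR-208 was detected on 1 array and lay at the floor on every array, so it was tested through P10 alone. The summed scaled level of the 5 markers was 11.7 to 17.0 at P0, 9.26 to 10.1 on P10 replicates 1 and 2 and 19.9 to 20.7 on P10 replicates 3 and 4. The endothelial marker miR-126, which was higher at P10, summed to 0 to 0.0609, 0.222 to 0.247 and 0.149 to 0.159 in the same order. The smooth muscle markers, miR-143 and miR-145, of which miR-143 was lower at P10, summed to 1.37 to 2.17, 0.852 to 0.901 and 1.11 to 1.17. The leukocyte markers, 5 of 6 on the array, summed to 0.0221 to 0.188, 0.205 to 0.208 and 0.0545 to 0.0569, with miR-142-5p detected on 0 arrays. Of the 2 tested, 1 was higher at P10, miR-146a. Like miR-208, miR-146a qualified for the test through P10 alone. Among the P0 arrays replicate 2 alone detected miR-146a, and all its P0 levels equalled the floor. Its P10 levels were -3.07 and -3.16 on replicates 1 and 2, but -5.02 and -4.89 on replicates 3 and 4. Of the neural markers, 1 of 3 was tested, miR-128, which was detected on 7 arrays, while miR-9 and miR-124 were detected on 0, and their sums were 0.0178 to 0.0697, 0.0504 to 0.0566 and 0.0630 to 0.0631. Of the erythroid markers 0 were tested: miR-451 was detected on 5 arrays, P0 replicates 2 to 4 and P10 replicates 3 and 4, and miR-144 on 0, with sums of 0 to 0.0336, then 0, then 0.0170 to 0.0180. P0 replicate 1, the dim array, set the lower P0 end of every sum except that of the leukocyte markers, whose upper P0 end it set through miR-223. On that array miR-223 stood at log2 -2.41, against -5.50, -4.86 and -5.35 on P0 replicates 2 to 4. The part of these cells in the levels below was not tested, and in such a preparation fewer cells of a type and less RNA per cell cannot be told apart.

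None of the 4 members passed the test between the ages, and they did not lie on one side of 0. miR-181a, miR-181b and miR-181d had lower means at P10 and miR-181c a higher one, with log2 differences from -0.62 ± 0.19 for miR-181b to 0.62 ± 0.37 for miR-181c (SE, n = 4 arrays per age). Within an array, the signal of miR-181c was 12.6% to 14.0% of that of miR-181a on the 3 P0 arrays that detected both, and 23.6% to 25.5% on the 4 P10 arrays. Ages separated in this way in 55.4% of all pairs of miRNAs detected on the same 7 arrays, and 40.9% of pairs shifted at least as far.

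miR-181a was detected on all 8 arrays. Its processed signal was 29.4, 445, 259 and 398 intensity units on P0 replicates 1 to 4, and 116.5, 101, 310 and 353 units on P10 replicates 1 to 4. After scaling, the log2 levels were -1.98, -1.57, -1.64 and -1.54 at P0 and -2.49, -2.52, -2.04 and -1.85 at P10. The ages overlapped through P0 replicate 1, which lay below P10 replicate 4. The means were -1.68 ± 0.20 and -2.22 ± 0.33 (SD, n = 4 arrays each), a difference of -0.54 ± 0.24 (SE) with a 95% interval of -1.08 to 0.00053 and an adjusted p of 0.174 by limma with Benjamini-Hochberg adjustment over 158 miRNAs. Without P0 replicate 1 the difference was -0.64 and passed (limma adjusted p = 0.0441), but with the scaling redone as well it was -0.82 and did not (limma adjusted p = 0.0813), over a range of adjusted p from 0.00916 to 0.996 across 24 alternatives. Of all tested miRNAs, 63 of 168 passed in the first of these fits and 71 of 168 in the second, against 14 of 158 with all arrays.

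miR-181b was detected on 7 arrays, all but P0 replicate 1. Its processed signal was 7.96, 114, 70.5 and 102 units at P0 and 37.0, 29.7, 66.6 and 68.6 units at P10. On the log2 scale the levels were -3.86, -3.55, -3.52 and -3.51 at P0 and -4.14, -4.29, -4.26 and -4.21 at P10. All 4 P10 levels lay below all 4 P0 levels, though P0 replicate 1 did not measure this, since its value was not well above background. Among all tested miRNAs, 25.9% had no overlap between the ages by the same count, against 1 of the 4 members. The means were -3.61 ± 0.17 and -4.22 ± 0.065 (SD, n = 4), and the difference of -0.62 ± 0.19 (95% interval -1.05 to -0.18) had an unadjusted p of 0.0108 and an adjusted p of 0.0797 in the limma fit. It passed without P0 replicate 1, at -0.70 (limma adjusted p = 0.00432), in a fit where 63 of 168 tested miRNAs passed. The limma adjusted p of miR-181b ranged from 0.00432 to 0.988 over 23 alternatives. With each P10 pair averaged, it stood at an adjusted p of 0.352 in the limma fit.

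miR-181c was detected on the same 7 arrays and lay at the floor on P0 replicate 1. The processed signal was 0.379, 62.4, 33.0 and 49.9 units at P0 and 29.7, 23.9, 79.3 and 86.1 units at P10. In log2 this gave -5.89, -4.41, -4.61 and -4.54 at P0 and -4.46, -4.60, -4.01 and -3.88 at P10. P10 replicates 3 and 4 lay above every P0 array, and P10 replicates 1 and 2 among P0 replicates 2 to 4. The difference of 0.62 ± 0.37 (SE, n = 4 per age; 95% interval -0.21 to 1.45; adjusted p = 0.280, limma) rested on the floored value. Without P0 replicate 1 it was 0.28, with that array left out and the scaling redone 0.10, with a doubled floor 0.37 and with no floor 1.21 ± 0.87.

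For miR-181d, also detected on all arrays but P0 replicate 1, the processed signal was 5.55, 86.7, 52.8 and 77.2 units at P0 and 28.3, 23.3, 78.0 and 83.0 units at P10. The log2 levels were -4.38, -3.94, -3.93 and -3.91 at P0 and -4.53, -4.64, -4.03 and -3.93 at P10. P10 replicates 1 and 2 were the lowest of the 8 arrays, and replicates 3 and 4 lay close to P0 replicates 2 to 4. The difference was -0.24 ± 0.25 (SE, n = 4 per age; 95% interval -0.80 to 0.32; adjusted p = 0.516, limma), and it was 0.056 with P10 replicates 1 and 2 left out. Without P0 replicate 1 it was -0.36, and with the scaling redone as well -0.54 (limma adjusted p = 0.227).

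**Figure D1:**
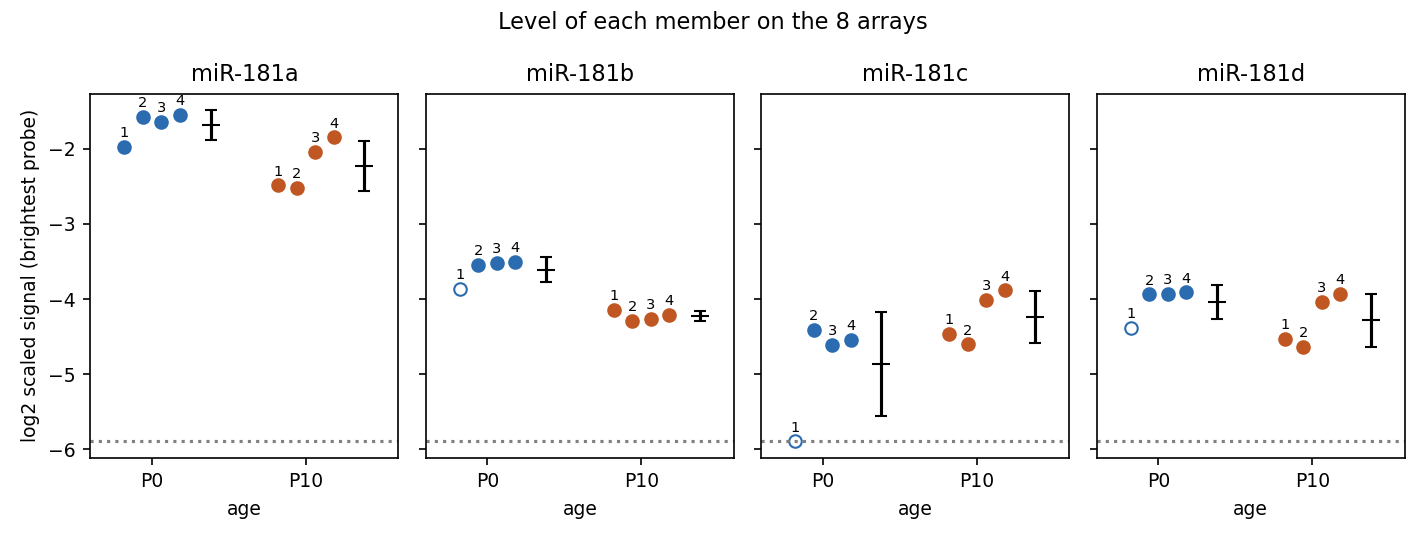
Log2 scaled signal of the brighter probe of each member (y axis) by age (x axis), with 1 numbered point per array, open where the probe was not well above background, the mean with its SD (n = 4) beside each age and the floor dotted. The P0 arrays 2 to 4 lie close together for each member, while P10 arrays 1 and 2 lie below P10 arrays 3 and 4 for miR-181a, miR-181c and miR-181d and level with them for miR-181b.

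By limma, 0 of the 4 members passed an adjusted p of 0.05 and 1, miR-181b, had an unadjusted p under 0.05. Over all 158 tested miRNAs, 8.86% passed (14 miRNAs, 7 higher and 7 lower at P10) and 44 had an unadjusted p under 0.05. The even split depended on the settings, with 11 higher and 0 lower under no scaling and 5 higher and 15 lower with a doubled floor. The median of the members' differences was -0.39, with 1 positive and 3 negative, against 0.03 over all tested miRNAs, with 81 positive and 77 negative.

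**Figure D2:**
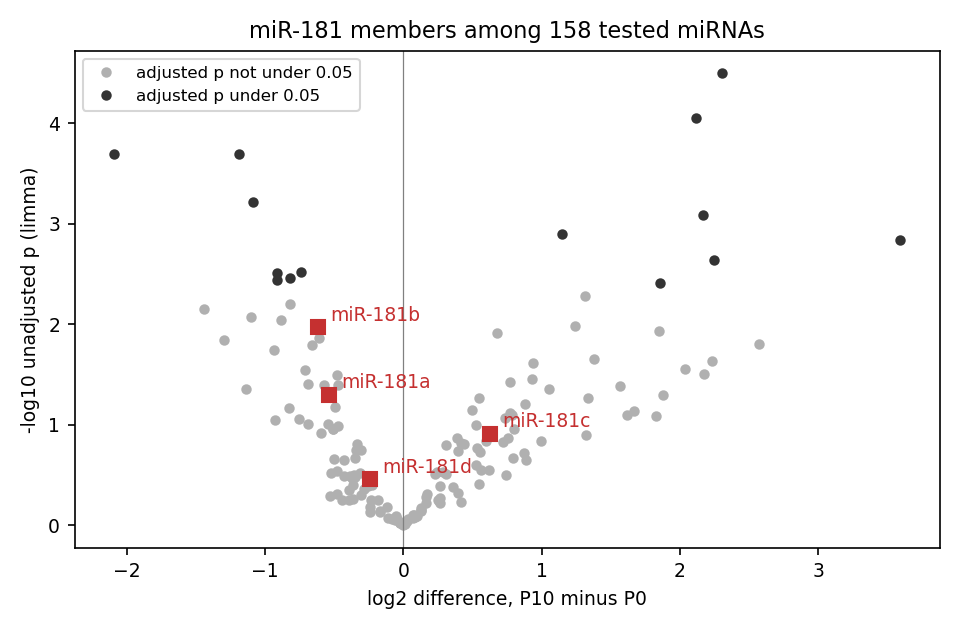
Log2 difference of P10 from P0 (x axis) against the negative log10 of limma's unadjusted p (y axis) for the 158 tested miRNAs, dark where the adjusted p was under 0.05 and red squares for the members. The members lie between -0.62 and 0.62 and below the 14 dark points.

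The second, dimmer probes gave the same signs. In a fit over the 273 probes detected on all arrays of an age, of which 3.66% passed, 0 member probes did. The second probe differed by -0.35 ± 0.29 for miR-181a and by -0.38 ± 0.36 for miR-181b (SE, limma), while those of miR-181c (0.50) and miR-181d (-0.01) were too dim to be tested. In all, 6 of the 8 probes were lower at P10, and the 2 that were not were those of miR-181c, with and without scaling between arrays. With P0 replicate 1 left out, the second probes stood at -0.56 for miR-181a, -0.75 for miR-181b, 0.42 for miR-181c and -0.15 for miR-181d.

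For 3 of the members the P10 pairs of arrays differed from each other by over 0.5 on the log2 scale. Levels on P10 replicates 3 and 4 were above those on replicates 1 and 2 by 0.56 for miR-181a, 0.58 for miR-181c and 0.60 for miR-181d, and differed by -0.02 for miR-181b. Set against P0 replicates 2 to 4, P10 replicates 1 and 2 differed by -0.92, -0.69, -0.01 and -0.66 for miR-181a to miR-181d in turn. P10 replicates 3 and 4 differed by -0.36, -0.71, 0.57 and -0.06. Of the 4 members, miR-181b alone thus had nearly the same difference in both pairs, and miR-181c had the highest difference of the 4 members in each.

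The signal ratio of a pair of members on the same array needs no scaling between arrays. Because the probes differ, a ratio is not one of molecules, and only its shift with age is read here, as a description without a test. P0 replicate 1 did not detect miR-181b, miR-181c or miR-181d, so ratios are given for the other 7 arrays.

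For miR-181c over miR-181a the ratio was 14.0%, 12.8% and 12.6% on P0 replicates 2 to 4 and 25.5%, 23.6%, 25.5% and 24.4% on P10 replicates 1 to 4. These are members of different hairpin clusters whose mature sequences differ by 1 base. On the log2 scale the mean moved from -2.93 ± 0.085 (SD, n = 3) to -2.01 ± 0.054 (SD, n = 4), a shift of 0.92 or 1.89 times. The shift was 0.91 from P10 replicates 1 and 2 and 0.93 from replicates 3 and 4, the pairs whose miR-181a levels differed by 0.56. All 4 combinations of the probes of these members showed no overlap, with shifts of 0.84 to 1.06, although some values of the second miR-181c probe were not well above background. Leaving out any one array kept it between 0.89 and 0.97.

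For miR-181d over miR-181a, again across clusters, the ratio was 19.5%, 20.4% and 19.4% at P0 and 24.3%, 23.0%, 25.1% and 23.5% at P10. The ages did not overlap, and the log2 shift was 0.28, or 1.21 times. After normexp background correction the shift was 0.45 and the ages overlapped.

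Within the cluster on chromosome 19, miR-181d over miR-181c stood at 139%, 160% and 155% at P0 and at 95.5%, 97.3%, 98.4% and 96.5% at P10. The log2 shift was -0.64, so that the neighbours 77 bases apart did not keep one ratio between the ages. This shift was -0.65 from the first P10 pair of arrays and -0.63 from the other, and -0.29 after normexp background correction, where the ages still did not overlap.

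Between the neighbours miR-181b and miR-181a the ratio was 25.5%, 27.2% and 25.7% at P0 and 31.8%, 29.4%, 21.5% and 19.5% at P10. The P10 pairs of arrays lay on either side of the P0 arrays, with log2 shifts of 0.23 and -0.35, and the ages overlapped. For miR-181c over miR-181b the ratio was 54.9%, 46.8% and 48.9% at P0 and 80.1%, 80.4%, 119% and 125% at P10, a log2 shift of 0.98. For miR-181d over miR-181b it was 76.3%, 74.9% and 75.6% at P0, and 76.5%, 78.3%, 117% and 121% at P10. The latter shift of 0.34 came almost wholly from P10 replicates 3 and 4, at 0.65 against 0.03 for the first pair.

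**Figure D3:**
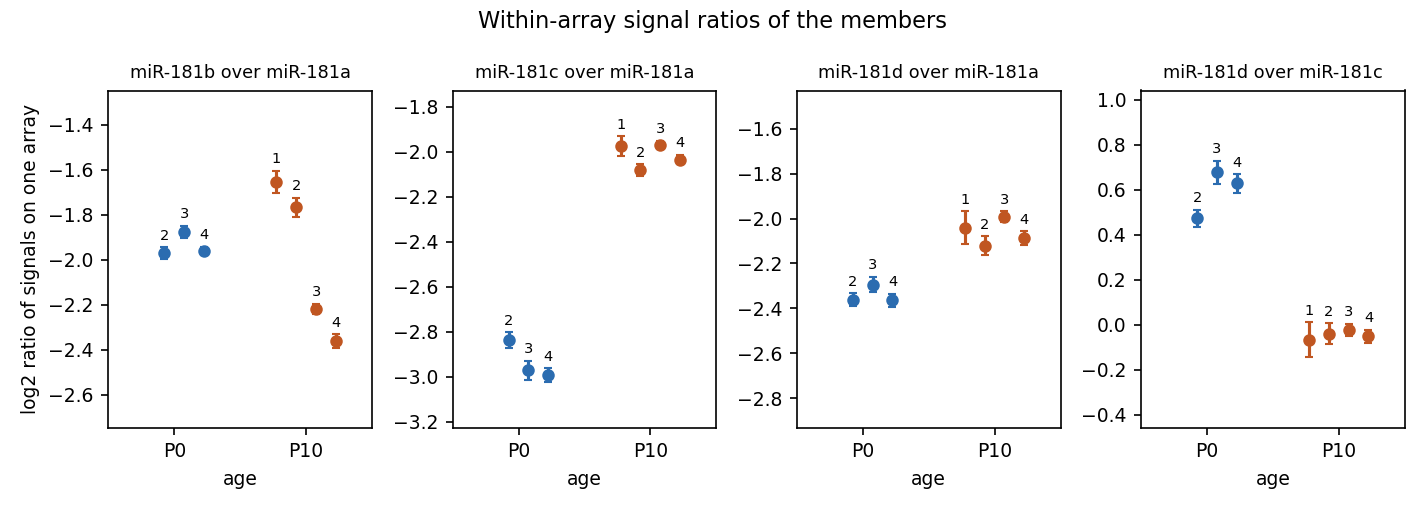
Log2 ratio of the signals of 2 members on one array (y axis, the same span in each panel) by age (x axis), with 1 numbered point per array and bars for the SE over spots; P0 array 1 is not shown because it did not detect miR-181b, miR-181c and miR-181d. The P10 points of miR-181c over miR-181a lie near -2 and its P0 points near -3, whereas those of miR-181b over miR-181a lie on both sides of the P0 points.

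In 5 of the 6 member pairs the ratios of the ages did not overlap. Such ratios were common on these arrays: 55.4% of the 9453 pairs among 138 miRNAs detected on the same 7 arrays had no overlap, and 40.9% shifted at least as far as miR-181c over miR-181a. The members' count is read against that share, and nothing about it is called particular to the family.

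Averaged by cluster, the mean log2 level of miR-181c and miR-181d minus that of miR-181a and miR-181b was -2.22, -1.61, -1.69 and -1.70 on P0 replicates 1 to 4 and -1.18, -1.22, -0.87 and -0.88 on P10 replicates 1 to 4. Every P10 array lay above every P0 array. The 55.4% given above is of unscaled ratios of single detected pairs on 7 arrays. It shows that separation was common there, but it is not a like-for-like share for this difference of means. The mean was -1.81 ± 0.28 at P0 and -1.04 ± 0.19 at P10 (SD, n = 4), a difference of 0.77, and it was 0.63 without P0 replicate 1, on which miR-181b, miR-181c and miR-181d were not detected. Since these means share arrays and hold chosen members, no p is given.

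Likeness of pattern was measured as Pearson's r of log2 levels across the 8 arrays, against miRNAs outside the family detected on all of them (69 candidates). The arrays share their scaling and the P10 arrays lie in near-identical pairs, so these values describe and do not test. Nearest to miR-181a were miR-301a (0.988), miR-130b (0.984) and miR-30b-5p (0.971), and nearest to miR-181b were miR-103 (0.979), miR-143 (0.953) and miR-107 (0.937). miR-143 is a miRNA of smooth muscle and is on the marker list given above. For miR-181d they were miR-30e (0.993), miR-30a (0.988) and the muscle miRNA miR-1 (0.970).
The nearest to miR-181c were miR-99a (0.843), miR-26b (0.592) and miR-25 (0.580). Without P0 replicate 1 these became -0.09, -0.69 and -0.47, so the likeness of miR-181c rested on that array, whereas for the other 3 members each r stayed within 0.937 and 0.994 over all of the named miRNAs. Among the members, on 7 arrays, r was 0.94 for miR-181a with miR-181d and 0.81 for miR-181a with miR-181b, but 0.35 for the neighbours miR-181c and miR-181d and 0.05 for miR-181a with miR-181c.

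miR-181c belongs with a small number of miRNAs known to act on mitochondria in heart cells, and the others on that list were miR-1, miR-21, miR-210, miR-378 and miR-499. Of these 5, 0 were higher and 2 lower at P10, beside 4.43% higher and 4.43% lower among all tested miRNAs, and their median difference was -0.75. The hypoxia-induced miR-210, which represses the iron-sulfur scaffold Iscu, differed by -2.09 ± 0.34 (limma adjusted p = 0.00797). miR-378, known to repress mitochondrially encoded Atp6, differed by -0.91 ± 0.23 (limma adjusted p = 0.0434). The remaining 3 did not pass: miR-1, known to enhance mitochondrial translation in muscle, stood at -0.18 ± 0.30, miR-21 at 0.87 ± 0.61 and miR-499 at -0.75 ± 0.39 (SE, n = 4 per age). The mean of miR-21 joins unlike P10 pairs, with log2 levels of 4.58 and 4.61 on replicates 1 and 2 and 2.21 on replicates 3 and 4. At P0 its levels were 2.04 to 2.76.

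The star strands, the opposite arms of the hairpins, were at background on nearly all arrays. The array carried 6 of them on 12 probes, and 1 of 96 probe values was well above background, that of miR-181a-1* on P10 replicate 2, where 5 of its 10 spots passed. This strand has another seed, bases 2 to 8 in capitals as before.
miR-181a-1*: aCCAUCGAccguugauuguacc
Its brighter probe read -1.10, 9.30, 3.59 and 7.50 intensity units at P0 and 12.6, 13.4, 7.11 and 6.51 units at P10, so P10 replicates 1 and 2 had the highest signals. In the authors' deposited table, where it is named miR-181a-1-3p, it was detected on 1 P0 and 2 P10 arrays, and the other 5 star strands on 0 arrays.

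The authors' deposited log2 values showed a split of the P10 arrays as well, for miR-181b too. In the authors' deposited table, miR-181a stood at 6.97, 7.81, 7.61 and 7.68 at P0 and at 6.41, 6.41, 7.61 and 7.68 at P10. miR-181b stood there at 6.23, 6.18 and 6.18 on P0 replicates 2 to 4, and at 4.29, 4.23, 4.81 and 4.81 at P10. For miR-181c the authors' deposited values were 4.53, 4.23 and 4.44 on those P0 arrays and 3.96, 3.91, 5.85 and 5.96 at P10, and for miR-181d 4.79, 4.79 and 4.81 and then 3.94, 3.77, 4.89 and 5.81. P10 replicates 3 and 4 lay above replicates 1 and 2 for every member in these values. On P0 replicate 1 the table holds a fill value for miR-181b, miR-181c and miR-181d. In that table the log2 difference of miR-181c from miR-181a was -3.38 to -3.23 on P0 replicates 2 to 4 and -2.50 to -1.72 at P10, without overlap. Such a difference is not a signal ratio like those above. On P10 replicate 4, raw signals of 71.5 for miR-181b and 79.0 for miR-181d stood there at log2 4.81 and 5.81.

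**Figure D4:**
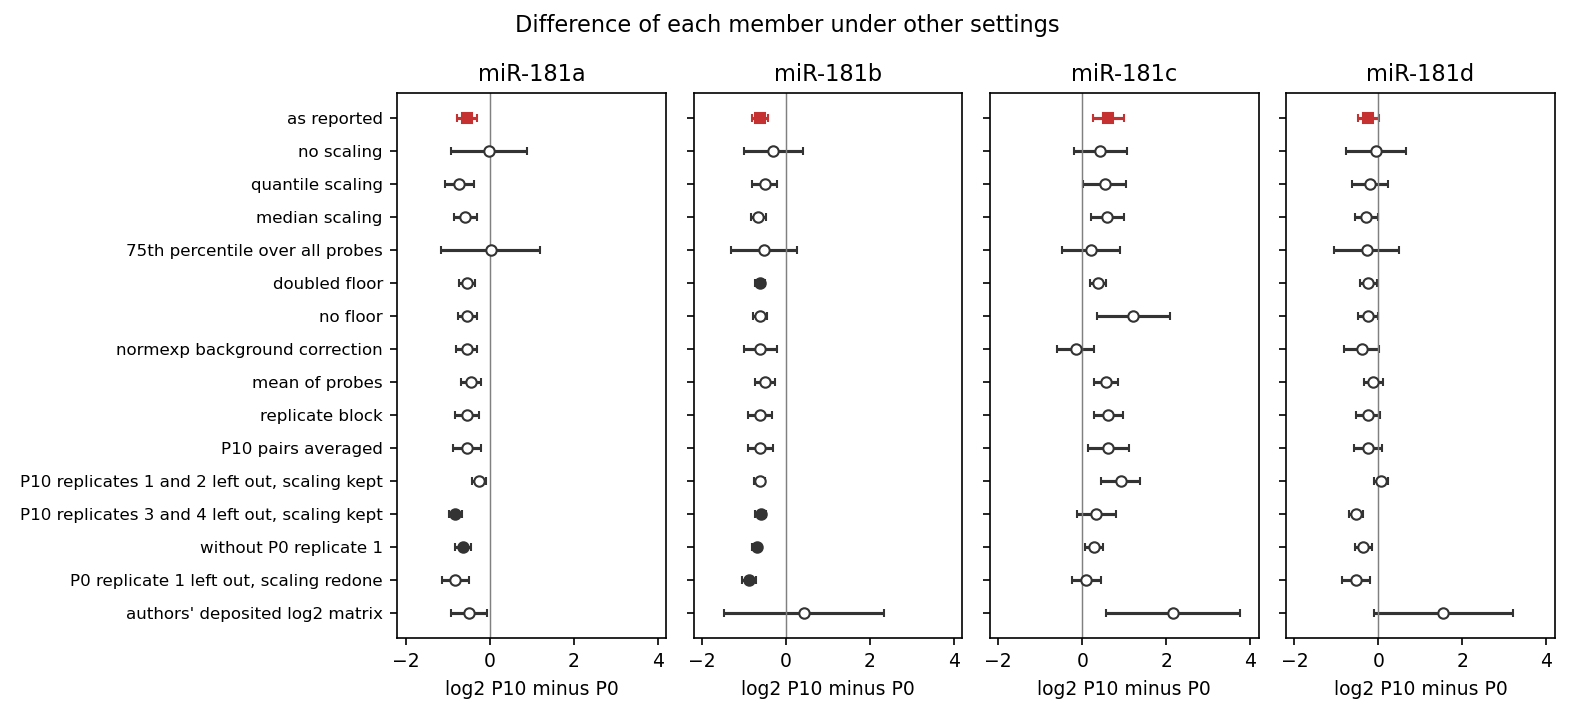
Log2 difference of P10 from P0 for each member (x axis) as reported (red square) and under other settings (circles, filled where the adjusted p was under 0.05), with SE bars. miR-181b is negative in each setting but the authors' deposited matrix, and miR-181c is positive in each but normexp. That deposited matrix holds a fill value on P0 replicate 1 for miR-181b, miR-181c and miR-181d.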

How the data were processed

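Per the labels' protocols, the mirVana kit was used for total RNA, which was labelled with Cy3. The deposited scanner files hold spot intensities written by Agilent Feature Extraction 10.7.1.1 (per the file headers), and the processed signal used here is background-subtracted and not scaled between arrays. The series' spot table holds the same intensities within 0.493%. The authors' deposited matrix holds log2 values, with a normalization not given in the sources used.

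Unflagged spots of a probe were averaged. For scaling, signals were divided by the 75th percentile, per array, of the 111 probes that all 8 arrays detected (at least 0.5 of a probe's spots well above background). Scaled values were floored at 0.0169, the arrays' median lowest detected signal, and put on the log2 scale. The brightest probe stood for a miRNA. Detection on all 4 arrays of an age qualified 158 of 677 miRNAs for limma 3.58.1 (R 4.3.3, lmFit and eBayes), with Benjamini-Hochberg adjustment and a threshold of 0.05. That fit was tested on simulated data. The number of arrays limits precision.

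The members, lists and tests were chosen with earlier results of these data known. Named miRNAs are the members, their star strands, for each member the 3 miRNAs of highest r, 5 miRNAs known to act on mitochondria, and cell markers. Alternatives changed the scaling, floor, background correction, probe rule, filter, replicate block and arrays used, and those of the within-array ratios were added after seeing the data. Sequences and hairpins came from RefSeq (GRCr8), with all 4 members matched. That table gives mature miR-181b only at its chromosome 13 locus.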

Additional observations from a re-analysis of the deposited data

Results flagged for a closer look

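Of the 10 groups of values examined (4 members and the cluster difference, at each age), 4 were flagged. The flags share an array and the cluster difference is computed from the members, so no rate by chance is set beside the count. In all 4, P0 replicate 1 lay far from the other P0 arrays. Its log2 level was -3.86 for miR-181b (others -3.55 to -3.51), -5.89 for miR-181c, which is the floor (others -4.61 to -4.41), and -4.38 for miR-181d (others -3.94 to -3.91). The mean of miR-181c and miR-181d minus that of miR-181a and miR-181b was -2.22 on this array and -1.70 to -1.61 on the others. It was the dim array, with a lowest detected signal of log2 -2.84, and did not detect miR-181b, miR-181c or miR-181d. The 3 levels lie under that limit, and the differences without this array stand beside each result.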

How the results depend on the processing

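Members against age. miR-181a (-0.54) became 0.024 with the 75th percentile taken over all probes, and -0.82 and past the threshold without P10 replicates 3 and 4. Leaving out single arrays gave -0.66 to -0.44, past the threshold only without P0 replicate 1, a call that was lost when the scaling was also redone (-0.82, limma adjusted p = 0.0813). miR-181b (-0.62) passed with a doubled floor (-0.62), without P10 replicates 3 and 4 (-0.61) and with P0 replicate 1 left out and the scaling redone (-0.88), and turned to 0.42 ± 1.91 in the authors' deposited matrix, which holds fill values for P0 replicate 1. Single arrays left out gave -0.70 to -0.58, past the threshold only without P0 replicate 1. Many miRNAs passed in these settings: 72 of 167 tested without P10 replicates 3 and 4, and 63 of 168 without P0 replicate 1. With the scaling redone as well 71 of 168 passed, and with a doubled floor 20 of 158. Without P10 replicates 3 and 4, the P10 spread was that of replicates 1 and 2, whose profiles were nearly the same (r = 0.998). miR-181c (0.62) turned to -0.16 after normexp and was 0.28 to 0.77 without single arrays. miR-181d (-0.24) turned to 1.55 in the authors' deposited matrix and to 0.056 without P10 replicates 1 and 2, and was -0.36 to -0.12 without single arrays. The authors' matrix holds the fill value -2.15 on P0 replicate 1 for miR-181b, miR-181c and miR-181d. Its values for miR-181d were 4.79 to 4.81 on P0 replicates 2 to 4 and 3.77 to 5.81 at P10. The cause of these turns was not tested. The filter for detection on all 8 arrays gives a value for miR-181a alone among the members.

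All miRNAs. The 14 past the threshold became 0 with the percentile over all probes, 0 after normexp (22 at an unadjusted p under 0.05), 0 with P10 pairs averaged (26 at an unadjusted p under 0.05), 5 with no floor, 8 with the mean of probes, 4 with no filter, 4 with the replicate block, 1 in the authors' deposited matrix, 72 without P10 replicates 3 and 4, 71 with P0 replicate 1 left out and the scaling redone, and 4 to 63 without single arrays, 63 being without P0 replicate 1. The 7 higher and 7 lower became 11 and 0 with no scaling, 5 and 15 with a doubled floor and 2 and 10 among miRNAs detected on all 8 arrays. No scaling moved the median of all miRNAs from 0.03 to 0.35, and the members then stood at -0.02, -0.30, 0.43 and -0.06.

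Cluster difference and ratios. The cluster difference (0.77) kept its sign in all 21 alternatives, at 0.21 with the percentile over all probes, 0.35 with no scaling, 1.06 with no floor, 0.30 after normexp, 1.88 in the authors' deposited matrix and 0.63 to 0.83 without single arrays. The 1.88 includes the fill values on P0 replicate 1. The log2 shift of miR-181c over miR-181a (0.92) was 0.74 after normexp and 1.19 in the authors' deposited matrix, that of miR-181d over miR-181a (0.28) was 0.45 and 0.48, and that of miR-181d over miR-181c (-0.64) was -0.29 after normexp.

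Pairing. Deviations of same-numbered samples correlated at 0.16, -0.15, 0.03 and 0.14, which gave no sign of pairing by number. With P0 replicate 1 dim and the P10 arrays in near-identical pairs, these values cannot exclude it. With the replicate block the members' differences were -0.54 ± 0.29, -0.62 ± 0.28, 0.62 ± 0.35 and -0.24 ± 0.29, and 0 of the 4 passed.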
